A study of Homo sapiens with 9 samples.

Results

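IGF2BP2 was compared between HEK293 and K562 cells in 5 antibody-barcode eCLIP (ABC) libraries, 2 from HEK293 and 3 from K562, out of 54 libraries with files here. ABC uses antibodies tagged with DNA barcodes, which mark the RNA fragments crosslinked to each RNA-binding protein (RBP), so that several RBPs are read from 1 lysate. The 5 libraries came from 5 pools of 10 antibodies, and the other 9 RBPs of the same pools (DDX3, EIF3G, FAM120A, LIN28B, PRPF8, PUM2, RBFOX2, SF3B4 and ZC3H11A; 45 libraries) served as the control for transcript abundance. The libraries were chosen by RBP, assay and cell line in their titles, and no measured value was used.

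HEK293 is a line of human embryonic kidney cells, named HEK293T in the labels and HEK293XT in the study's text, and K562 is a line of human erythroid leukemia cells. Neither line carried a labelled treatment or edit, and both were cultured in the same medium, UV-crosslinked and immunoprecipitated with the same 10 antibodies, MBL RN008P for IGF2BP2. No source used here says that the replicates were separate cultures, so p-values measure the spread between these pools, which may be technical. The cell line field of both HEK293 pools reads K562, and that of K562 replicate 3 reads K563, against their titles. Over the summed reads of all 10 libraries, the 17 erythroid markers reached 1468, 1714 and 1964 RPM (counts scaled to one common total of reads in peaks) in the K562 pools and 1.61 and 2.22 in the HEK293 pools, where 15 of them, among them the globins HBG1 and HBE1 and the transcription factor GATA1, were at 0. The 12 markers of HEK293 summed to 1465 and 1439 RPM in the HEK293 pools and to 103.2 to 182.7 in the K562 pools, and 11 of the 12 were higher in HEK293. Pools were therefore grouped by their titles.

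IGF2BP2 belongs to a family of cytoplasmic RBPs, with IGF2BP1 and IGF2BP3, that coat mature mRNAs through KH domains and RRMs and are known for protecting them from decay and for holding them in granules. IGF2BP1 and IGF2BP3 are mainly fetal and are expressed again in tumors. HMGA1, MYC, CTNNB1 and the IGF2 leader are among the textbook targets of the family. Sites lie in coding sequence (CDS) and 3′ UTRs, and the letters most often tied to the family are CA-rich, with a CAU core, and the methylated-adenosine core GGAC.

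The sequences below were read from GRCh38 on the strand of the peak, 30 nt around the centre of the strongest peak of each site, with matches to the motifs searched in capitals, namely the CAU type (CATA and CATC and also CATT), the CA repeat (ACACA) and the m6A type (GGAC). The first set shows 5 sites in mRNA exons that were enriched over the other 9 RBPs in all 5 libraries. They had the highest mean fold over these RBPs among the sites ranked, and the limit on this ranking is given with their reads below. Both lines share these sites on the stricter measure. This set was chosen after its values were seen.
HMGA1 3′ UTR (chr6:34245887-34245916, plus strand): cttcgaCATCcgtCATTgctgctgctacca
NFATC3 CDS (chr16:68122616-68122645, plus strand): cctagatccagtgtcactgatgagaattgg
SLC25A23 3′ UTR, distal (chr19:6441272-6441301, minus strand): ccacaatgcctggatcctggggccccCATC
SLC25A23 3′ UTR, proximal (chr19:6441535-6441564, minus strand): ctactggatcctGGACctctacgtcttaac
ACLY 3′ UTR (chr17:41866975-41867004, minus strand): caaagattctgggcagctgccacctcagtc
The second set shows the strongest sites that were enriched over the external background in all K562 libraries and in no HEK293 library.
FTH1 5′ UTR (chr11:61967544-61967573, minus strand): ccggcgctcgttccccaccccggccggccg
FTL 5′ UTR (chr19:48965412-48965441, plus strand): ccgcttgcaacctccgGGACCATCttctcg
LDHA 3′ UTR (chr11:18407530-18407559, plus strand): tgacgcaccactgccaatgctgtacgtact
HMGA1 3′ UTR, upstream site (chr6:34245574-34245603, plus strand): ccccttgccctccgcctgggatctgagtac
The third set shows 3 of the 4 strongest sites that were enriched in both HEK293 libraries and in no K562 library, all in introns.
U2AF2 intron (chr19:55670475-55670504, plus strand): cctgctgtccgtgcaccctgctgtccgtgc
RTEL1 intron (chr20:63667982-63668011, plus strand): cttcccagtgcatgcccggccccacactca
UCKL1 intron (chr20:63948622-63948651, minus strand): cctctcACACAcgccccttccctctcacac

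The IGF2BP2 libraries of HEK293 held 57474 and 87040 merged peaks with 545444 and 1124616 reads in them, and those of K562 held 17823, 29291 and 41591 peaks with 190889, 297199 and 495728 reads. IGF2BP2 took 6.16% to 15.9% of the reads in peaks of its pool. A peak was called enriched where P was below 0.001 and the fold above 8, over the external background or over the complement control (CC). The external background is RNA-seq by the study's methods, which name a separate dataset for each line. The CC is made up of the reads of the pool's other 9 RBPs. For IGF2BP2, the external backgrounds of the lines differed in depth: 98.3% to 98.7% of the IGF2BP2 peaks in K562 had at most 1 background read, against 8.29% and 12.5% in HEK293. One IGF2BP2 read over 1 background read gave a fold of 64.3 and 41.1 in HEK293 and of 4.49, 2.76 and 1.93 in K562. Within a line these values differed among RBPs as well. In HEK293 replicate 1, 1 read over 1 background read gave a fold of 1.48 for RBFOX2 and of 46.3 for PRPF8. At most 1 background read was found in 71.3% of the RBFOX2 peaks and 9.94% of the PRPF8 peaks. The part of these differences in the comparisons over the external background was not tested. Values over the CC, which has no external library, are given beside these comparisons.

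Over the external background, the CDS held a smaller share of enriched IGF2BP2 peaks in HEK293 than in K562, the 3′ UTR a smaller share and introns a larger one. The CDS share was 20.5% and 20.9% in HEK293 (mean 20.7 ± 0.292, SD, n = 2) and 33.9%, 33.1% and 31.7% in K562 (32.9 ± 1.15, n = 3). The 3′ UTR share was 41.2% and 27.4% in HEK293 (34.3 ± 9.76, n = 2) and 43.96%, 52.7% and 53.3% in K562 (50.0 ± 5.24, n = 3). The intron share was 22.0% and 34.3% in HEK293 and 3.34%, 1.603% and 1.53% in K562. The lines did not overlap in any of these shares, and the 2 HEK293 libraries lay further apart in 3′ UTR and intron shares than the 3 K562 libraries did. The difference was −12.1 percentage points for the CDS and −15.7 for the 3′ UTR, each with p = 0.1 in an exact two-sided permutation test (adjusted p = 0.16 over 8 tests), which is the smallest p that the 10 splits of 2 against 3 pools can give. The 3′ UTR difference rested on HEK293 replicate 2, and was −8.77 points without it and −22.6 without replicate 1. Among peaks in CDS and UTRs alone, the differences were −3.33 points for the CDS and −1.38 for the 3′ UTR (exact permutation p = 0.5 and 0.7).

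The other 9 RBPs moved in the same pools. Their mean CDS share was 22.3% and 26.1% in HEK293 and 40.3% to 42.8% in K562, and all 9 had a lower CDS share and a higher intron share in HEK293. IGF2BP2 less this mean was −1.73 and −5.10 percentage points for the CDS in HEK293 and −8.89, −8.54 and −8.68 in K562, so that the difference between lines turned to 5.29 points higher in HEK293 (exact permutation p = 0.1, adjusted p = 0.16). For the 3′ UTR, where IGF2BP2 stood above the mean of the other RBPs and below FAM120A in every pool, the excess over the mean was 23.2 and 10.6 points in HEK293 and 26.4, 30.1 and 33.5 in K562. The difference in excess was −13.1 points (exact permutation p = 0.1, adjusted p = 0.16), and −6.77 without HEK293 replicate 2. Of the other 9 RBPs, 7 had a higher mean 3′ UTR share in HEK293 and 2 a lower one, with a median difference of 0.31 points. FAM120A, which also had most of its peaks in K562 in 3′ UTRs, had a mean share of 46.6% in HEK293 and 75.8% in K562. Its difference of −29.25 points was larger than the −15.67 of IGF2BP2. For introns, IGF2BP2 less the mean of the other RBPs was −8.19 and 4.46 points in the HEK293 libraries and −7.70, −9.06 and −10.4 in K562. The external background was not alike for all RBPs of a pool, and its part in these subtractions was not tested.

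**Figure D1:**
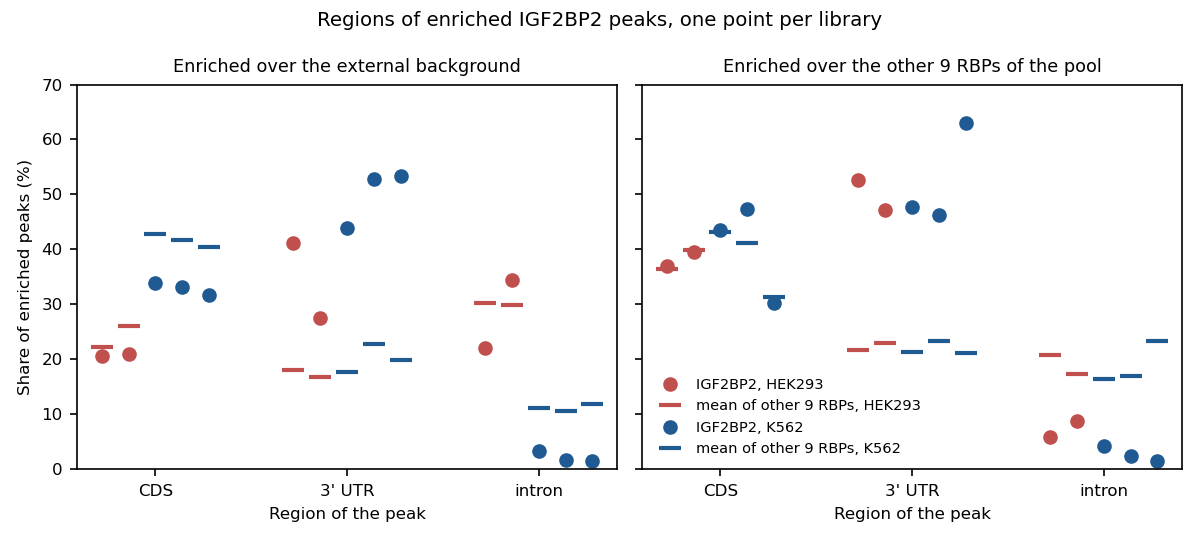
Share of enriched peaks (%, y axis) in CDS, 3′ UTR and introns, over the external background (left) and over the other 9 RBPs (right), with 1 point per IGF2BP2 library and a bar for the mean of the other 9 RBPs of its pool. On the left the HEK293 points lie apart from the K562 points in all 3 regions; on the right the CDS and 3′ UTR points of the lines overlap, and the 3′ UTR points stand above the bars in all 5 pools.

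Over the CC, the CDS and 3′ UTR shares of the lines overlapped, and IGF2BP2 had a larger 3′ UTR share than the mean of the other RBPs in every pool. The CDS share was 36.9% and 39.5% in HEK293 and 43.5%, 47.4% and 30.2% in K562 (difference −2.14 points, exact permutation p = 0.8). The 3′ UTR share was 52.7% and 47.2% in HEK293 and 47.7%, 46.3% and 63.1% in K562 (difference −2.40 points, exact permutation p = 0.9). K562 replicate 3, whose CC values were deposited in another form and with repeats, gave the lowest CDS and the highest 3′ UTR share of the 5. The 3′ UTR share exceeded the mean of the other 9 RBPs by 31.1 and 24.2 points in HEK293 and by 26.5, 23.0 and 41.9 in K562. FAM120A had a larger 3′ UTR share than IGF2BP2 in every pool (93.7% to 94.8%), and PUM2 had one in K562 replicate 2 (52.5%). In CDS, IGF2BP2 differed from the mean of the other 9 RBPs by −1.16 to 6.27 points over the 5 pools. The intron share was 5.89% and 8.84% in HEK293 and 4.15%, 2.41% and 1.49% in K562. The HEK293 libraries were again the higher (difference 4.68 points, exact permutation p = 0.1). The mean of the other 9 RBPs was higher in each pool (16.4% to 23.3%), but it held RBFOX2 (61.2% to 72.7%) and SF3B4 (31.5% to 54.65%). In HEK293 replicate 2, IGF2BP2 lay above DDX3, EIF3G, FAM120A, LIN28B, PRPF8 and PUM2 (2.51% to 8.055%) and below ZC3H11A (9.10%), RBFOX2 and SF3B4. In K562 replicate 3 it was the lowest of all.

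Along the mRNA, IGF2BP2 peaks over the CC were densest in the first of 10 bins of the 3′ UTR in all 5 libraries (8.20% to 11.5% of the placed peaks). These peaks lay, within the 3′ UTR of the canonical transcript, at a median of 703 and 662 nt from the stop codon in HEK293 (3334 and 2321 peaks) and of 528, 561 and 574 nt in K562 (1841, 3231 and 3004 peaks). Over the external background the same medians were 1187 and 1269 nt in HEK293 and 600, 631 and 611 nt in K562, and the densest bin in HEK293 was the last of the 3′ UTR (7.59% and 6.54%). The mean over the other 9 RBPs was 914 and 971 nt in HEK293 and 524 to 607 nt in K562 over the external background, and 716 and 653 nt against 652 to 722 nt over the CC. These positions were not tested between lines.

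**Figure D2:**
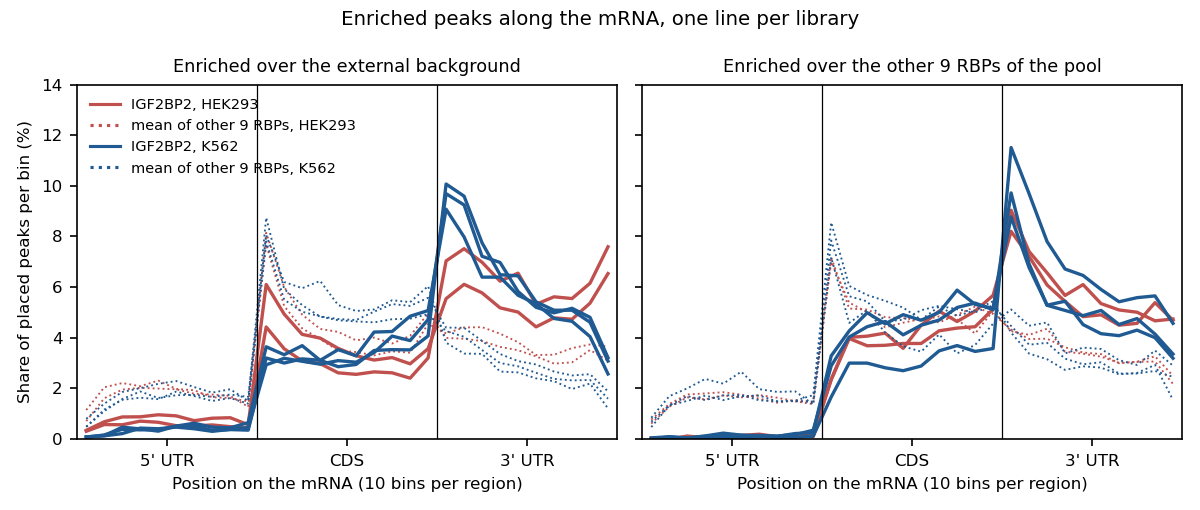
Share of enriched peaks (%, y axis) in 10 bins of each of 5′ UTR, CDS and 3′ UTR (x axis) for IGF2BP2 (solid, 1 line per library) and the mean of the other 9 RBPs (dotted). Over the CC, solid lines stay at or below 0.350% in the 5′ UTR and peak in the first bin of the 3′ UTR, and over the external background the HEK293 lines are highest in its last bin, at 7.59% and 6.54%.

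At the level of genes, reads of IGF2BP2 followed those of the other RBPs, and no gene passed the test for a preference that differs between lines. The preference of a gene is log2 of IGF2BP2 RPM less log2 of the RPM of the other 9 RBPs in the same pool, with a pseudocount of 1 read, so that a gene whose reads rise equally for all RBPs keeps its preference. Reads of the other 9 RBPs were summed, so deep libraries weighed most. In HEK293 replicate 1 these libraries ranged from 23015 (PUM2) to 1928819 (FAM120A) reads in peaks. RBFOX2 held 1540846 of 5680876 such reads in HEK293 replicate 1 and 372903 of 2624946 in K562 replicate 3. The preference was tested by limma in 6934 genes with at least 20 reads of the other 9 RBPs in each pool. No gene was called by limma at an adjusted p below 0.05 (0% of genes, with a lowest adjusted p of 0.369), and 782 genes (11.3%) had an unadjusted p below 0.05. Without the control, 1078 genes (15.5%) were called for IGF2BP2 RPM, 510 higher in HEK293 (7.36%) and 568 lower (8.19%), and 2249 (32.4%) had an unadjusted p below 0.05. Leaving out HEK293 replicate 1 or 2 left 580 and 449 calls. Of these, 105 and 108 were higher in HEK293 and 475 and 341 lower. Leaving out K562 replicate 2 or 3 gave 672 and 618 higher and 494 and 423 lower. Of the 1078, the other 9 RBPs differed in the same direction in 1061 and were themselves called in the same direction in 925, out of 3255 genes (46.9%) called for them. The median size of the difference over the 1078 genes was 2.69 on the log2 scale for IGF2BP2 reads and 0.88 for the preference, and over all genes tested 1.08 and 0.70. Over genes, which are not independent replicates and share pools and library totals, the IGF2BP2 and other-9 differences had a Pearson r of 0.774 (n = 6934) and 0.827 in the 3990 genes with a mean of at least 20 IGF2BP2 reads. Preferences of these 3990 genes had a Pearson r of 0.693 between the HEK293 libraries, 0.574 to 0.694 between K562 libraries and 0.469 to 0.578 across lines. In these bulk pools, fewer bound molecules per transcript and fewer transcripts cannot be told apart without the control.

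**Figure D3:**
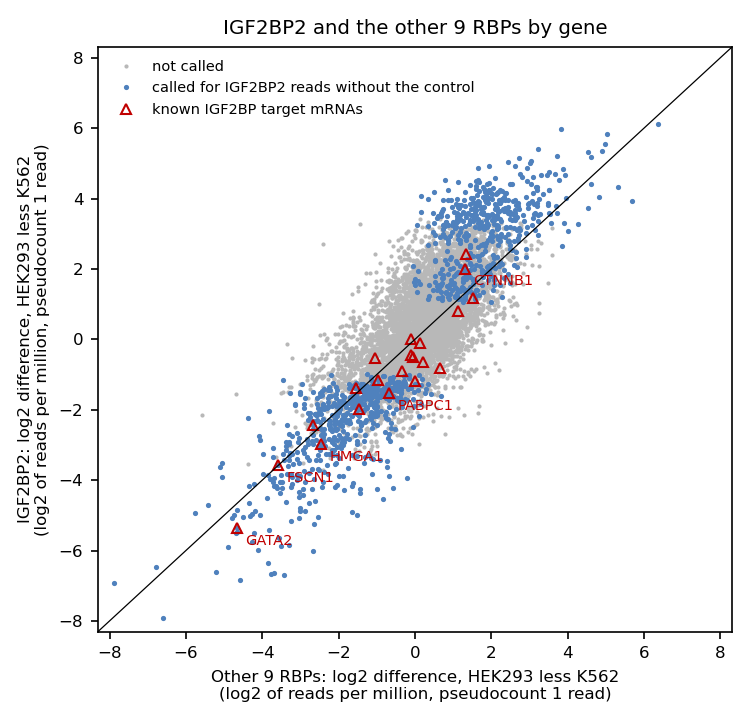
HEK293 less K562 difference in log2 RPM for the other 9 RBPs (x axis) and for IGF2BP2 (y axis), 1 point per gene tested (6934), with the 1078 genes called without the control in blue and known IGF2BP target mRNAs as triangles. The line marks equal differences on both axes; FSCN1 lies on it at −3.58, HMGA1 at −2.97 lies below it, and many blue points at the upper right lie above it.

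Of the 29 known IGF2BP target mRNAs, 21 were tested, none was called for a differing preference, and 9 were called for IGF2BP2 reads without the control, 1 higher in HEK293 and 8 lower, where 7.36% and 8.19% of all genes were called higher and lower. The list was drawn from general knowledge with earlier results of these data known. Its median difference in preference was −0.32, against 0.20 over all genes tested, 6 of the 21 had a difference above 0 (58% of all genes) and the lines did not overlap in 4 (33.5% of all genes).

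HMGA1, a chromatin protein, had 1109 and 1879 IGF2BP2 reads in HEK293 and 2523, 5513 and 6095 in K562. Its preference was 4.08 and 4.19 in HEK293 and 4.68, 5.19 and 4.10 in K562, with overlapping lines. On the linear scale, the IGF2BP2 RPM was 17.6 times that of the other RBPs in HEK293 and 25.2 times in K562 (difference in preference −0.52 ± 0.44, SE, limma adjusted p = 0.64). Its RPM was lower in HEK293 by a log2 difference of −2.97 for IGF2BP2 and −2.45 for the other RBPs.

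PABPC1, the cytoplasmic poly(A)-binding protein, had 1757 and 4165 IGF2BP2 reads in HEK293 and 2191, 3276 and 3793 in K562. Its preference was 2.78 and 3.11 in HEK293 and 3.86, 4.09 and 3.42 in K562. The lines did not overlap, and the difference of −0.85 ± 0.38 (SE) did not pass (limma adjusted p = 0.441). FSCN1, an actin bundler, had a preference of 2.05 and 1.62 in HEK293 and of 1.91, 2.25 and 1.37 in K562, a difference of −0.01 ± 0.40, while its IGF2BP2 RPM was lower in HEK293 by a log2 difference of −3.58 and that of the other RBPs by −3.57. The glucose transporter SLC2A1 had a preference of 1.70 and 1.72 in HEK293 and 1.04, 1.52 and 2.04 in K562. HMGA1, PABPC1, FSCN1 and SLC2A1 had the highest mean preferences of the list in both lines.

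CTNNB1, which encodes β-catenin, had a preference of 0.96 and 1.26 in HEK293 and of 0.47, 0.70 and 0.02 in K562, with no overlap (difference 0.71 ± 0.42, SE, limma adjusted p = 0.519). It was the 1 list member called without the control as higher in HEK293. MYC, the transcription factor, had 0.52 and 0.74 in HEK293 and 0.59, 1.39 and 1.33 in K562, and the cyclin CCND2 1.10 and 0.35 against 1.00, 1.09 and 1.77. The mRNAs of the family itself were below the other RBPs or near them: IGF2BP1 lay at −1.39 and −2.13 in HEK293 and −1.66, −2.22 and −1.73 in K562, and IGF2BP2 at −0.32 and −0.18 against 0.26, −0.52 and 0.22. IGF2BP3 lay at −1.19 and −1.78 in HEK293 and −0.48, −0.88 and −0.55 in K562. Its values did not overlap between the lines (difference −0.85, limma adjusted p = 0.609). The IGF2BP2 mRNA had 68 and 143 IGF2BP2 reads in HEK293 and 30, 28 and 77 in K562. Of the mRNAs of the other 9 RBPs, all of which were tested, none was called for preference, with PUM2 at −0.61 and −0.41 in HEK293 and 0.24, 0.71 and 0.70 in K562.

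The other 8 members were too low in a line to be tested. HMGA2, the relative of HMGA1, had 210 and 257 IGF2BP2 reads in HEK293 and 0 in each K562 library, where the other 9 RBPs were also at 0. H19, an imprinted noncoding RNA, had 0 IGF2BP2 reads in HEK293 and 61, 91 and 55 in K562, beside 12 and 36 reads of the other RBPs in HEK293 and 4188, 7351 and 2918 in K562. FGFR1, a growth factor receptor, had 42 and 94 reads in HEK293 and 0 in K562. IGF2, the growth factor that names the family, had 3 and 10 IGF2BP2 reads in HEK293 and 0 in K562, where the other RBPs were at 0 as well. CCND1, CD44 and SOX2 had at most 18 IGF2BP2 reads in any library, and PEG10 was at 0 in all. A 0 here means that no peak was called in the gene.

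**Figure D4:**
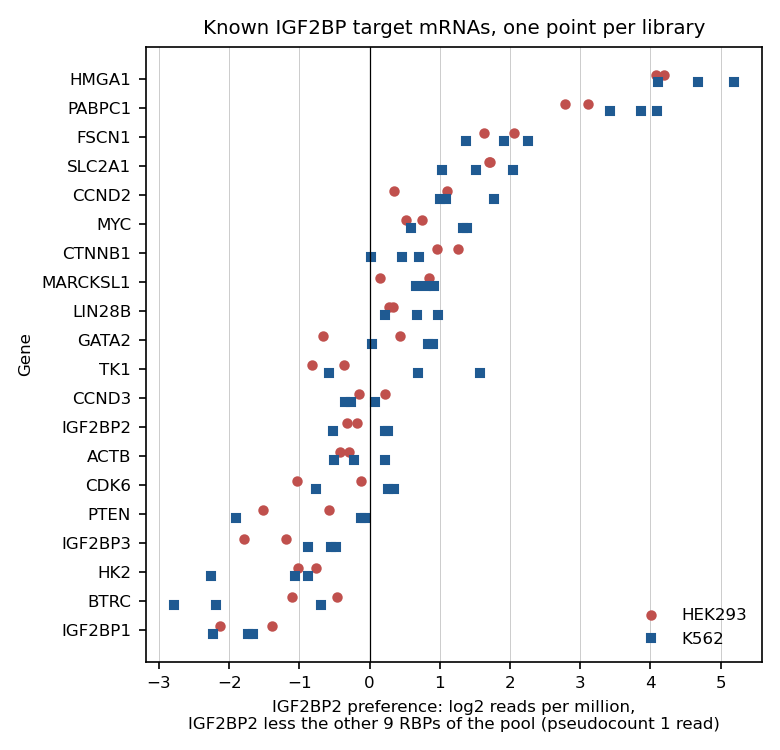
IGF2BP2 preference (x axis, log2) of 20 of the 21 known IGF2BP target mRNAs tested, ordered by their mean, with 1 point per library (HEK293 circles, K562 squares). HMGA1 lies above 4 in all 5 libraries and PABPC1 at 2.78 or above, while the other 18 lie between −2.79 and 2.25, and the lines overlap in 17 of the 20.

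Read shares were led by noncoding RNAs in both lines. In HEK293 the highest mean shares of IGF2BP2 reads were those of XIST (2.01% and 1.57%), RMRP (0.809% and 1.71%), GAS5 (0.830% and 0.929%), ENSG00000270022 and the U3 small nucleolar RNA SNORD3A. In K562 they were those of GAS5 (2.81%, 1.16% and 1.87%), HMGA1 (1.32%, 1.86% and 1.23%), SNHG1, RMRP and MALAT1. XIST, the long noncoding RNA of X inactivation, had a log2 difference of 6.13 in IGF2BP2 RPM and of 6.38 in those of the other RBPs, and a preference of 0.39 and 0.22 in HEK293 and 0.23, 0.52 and 0.91 in K562. HMGA1 was the only mRNA among the 10 ranks and the only one with a preference above 2.

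The 10 genes of lowest p in each direction, none of them called (limma adjusted p = 0.369 each), differed in kind. Those with the higher preference in HEK293 held 7 small nucleolar RNAs (snoRNAs), which guide the modification of ribosomal RNA: SNORD99, SNORD14A, SNORD15B, SNORA19, SNORD14E, SNORD93 and SNORD105B. SNORD99 had a preference of 2.32 and 2.09 in HEK293 and of −0.21, −0.31 and −0.27 in K562, and its IGF2BP2 RPM differed by −0.19 on the log2 scale while those of the other RBPs differed by −2.66. The other 3 were ENSG00000270066 and the mRNAs PPP1R13L and PSPC1, whose IGF2BP2 reads were 0 in all 3 K562 libraries and 7 and 20 (PPP1R13L) and 26 and 81 (PSPC1) in HEK293.

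Those with the higher preference in K562 were 10 mRNAs. CAMTA1, a transcription factor, had 46 and 91 IGF2BP2 reads in HEK293 and 10, 31 and 56 in K562, with a preference of −0.19 and −0.11 against 1.92, 2.33 and 2.68. CAV2, a caveolin, had a preference of −0.14 and 0.83 in HEK293 and of 3.31, 2.63 and 2.39 in K562. APOBEC3C, a cytidine deaminase, lay at −0.87 and −1.82 against 1.71, 0.90 and 1.59, and MBNL2, a splicing regulator, at −0.45 and 0.02 against 2.05, 1.87 and 1.53. GPR160, KCMF1, SLC39A8, RFC3, CHRAC1 and CCDC91 had differences of −2.84 to −1.81. The lines did not overlap in any of the 20 genes, as in 33.5% of all genes tested, and the 20 were picked by their p.

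Over all 100 snoRNAs tested, a group formed after the values were seen, the difference in preference was above 0 in 98, with a median of 1.31. Over all genes tested it was above 0 in 58%, with a median of 0.20. The median preference of the snoRNAs was 1.13 and 1.19 in HEK293 and −0.10, −0.01 and −0.17 in K562. IGF2BP2 RPM of these snoRNAs was lower in HEK293 by a median log2 difference of −0.66, and those of the other 9 RBPs by −1.95. The median fell to 0.90 with RBFOX2 left out of the control, and it was 1.25 for LIN28B in place of IGF2BP2, −1.49 for RBFOX2 and between 0.18 and 0.66 for the other 7 RBPs. RBFOX2 is a nuclear splicing factor and snoRNAs are nucleolar, and the part of the make-up of the control in this difference was not tested beyond these values. Other noncoding genes leaned the same way. The difference was above 0 in 112 of 168 lncRNAs (median 0.52), 26 of 35 miRNAs (0.60) and 26 of 30 rRNA pseudogenes (0.41). In protein-coding genes it was above 0 in 3702 of 6526 (0.16).

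The other lists had no gene called for a differing preference. Of 89 ribosomal protein mRNAs, 79 were tested, with a median difference in preference of 0.15, and 6 were called higher and 3 lower in HEK293 without the control, beside 7.36% and 8.19% of all genes. The 26 translation factors tested had a median of 0.25, the 66 mRNAs of the respiratory chain 0.43, the 15 of the cytoskeleton 0.11, the 15 chaperones 0.12, the 21 of the membrane and secretory pathway −0.08, the 19 hnRNPs 0.02 and the 16 cell cycle genes −0.48, against 0.20 over all genes. Without the control, the genes called higher and lower in HEK293 numbered 3 and 4 of the translation factors, 1 and 7 of the respiratory chain and 1 and 7 of the cytoskeleton. They numbered 0 and 5 of the chaperones, 0 and 4 of the cell cycle, 0 and 4 of the membrane and secretory pathway and 2 and 1 of the hnRNPs, beside the same shares of all genes. In the same genes the other 9 RBPs had median differences of −0.36 (translation factors), −0.28 (respiratory chain), −0.97 (cytoskeleton), −0.22 (chaperones), −0.38 (cell cycle), −0.01 (membrane and secretory pathway) and 0.27 (hnRNPs), against 0.20 over all genes.

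Genes and sites present in all replicates were counted with no test, since presence depends on depth and on the background. Over the external background, 1199 genes held an enriched IGF2BP2 peak in all 5 libraries, 20.7% of the 5807 genes of both HEK293 libraries and 70.1% of the 1711 genes of all K562 libraries. A further 3367 genes were enriched in both HEK293 libraries and in no K562 library, and 266 in all K562 and no HEK293 library. At 5691 peaks per library, the length of the shortest list, these numbers were 654 in all, 697 in HEK293 only and 436 in K562 only, and over the CC they were 598, 458 and 181. Of the 3367 genes in HEK293 only, 492 had no read of the other 9 RBPs in any K562 pool and 1723 were among the genes tested. In those 1723 the median difference in IGF2BP2 RPM was 1.72 on the log2 scale, in the reads of the other RBPs 0.88 and in preference 0.78. Of the 266 in K562 only, 50 had no read of the other RBPs in HEK293 and 190 were tested, with medians of −1.19, −0.67 and −0.34. Both groups were picked by IGF2BP2 enrichment in the same libraries. The choice therefore favoured the direction of their IGF2BP2 and preference differences, which are a description only.

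Without HEK293 replicate 1, 5581 genes were in HEK293 only, and without HEK293 replicate 2 or K562 replicate 1, 402 and 409 were in K562 only.

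Joined into sites (runs of overlapping or touching enriched peaks), 896 sites were enriched in all 5 libraries, which is 12.4% of the 7200 sites of both HEK293 libraries and 32.6% of the 2746 of all K562 libraries. In all, 5001 sites were in HEK293 only and 1572 in K562 only. With 1 library left out, the former were 29001 and 17447 (without HEK293 replicate 1 or 2) and the latter 3141 (without K562 replicate 1). Of the sites in K562 only, 83.3% had an IGF2BP2 peak in HEK293 that did not pass the limits, and 1078 had one in both HEK293 libraries. Of the sites in HEK293 only, 32.6% had an IGF2BP2 peak in K562, and 39.8% had no peak of any of the other 9 RBPs there. Among the sites in K562 only, 13.2% had no peak of any of the other 9 RBPs in HEK293. The 896 shared sites were 44.9% 3′ UTR, 33.0% noncoding exon and 13.2% CDS, the K562-only sites 49.9% 3′ UTR, 42.9% CDS and 0.445% intron, and the HEK293-only sites 42.4% 3′ UTR, 25.0% CDS and 17.0% intron. Over the CC, 291 sites in 234 genes were enriched in all 5 libraries, 62.5% of them in 3′ UTRs, 34.7% in CDS, 2 in introns of mRNAs and 3 in noncoding exons. They were 27.2% of the sites of both HEK293 libraries and 37.9% of those of all K562 libraries. HMGA1 held 6 of them, and LDHA, NFATC3, PABPC1 and WAC were among the genes with 4 each.

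Reads at a site are those of its highest peak, with the highest peak of each other RBP summed, and the fold over the other RBPs is the highest of any single IGF2BP2 peak in the site over the reads of the other RBPs that overlap it, so that it need not be the ratio of the reads printed. The 4 sites of highest fold over the external background in each class were taken from genes tested, with chromosome 8 left out. The 4 shared sites so named were in the noncoding RNAs ENSG00000270022, RMRP, 7SK and RNU5E-1. There the other 9 RBPs held 3021 to 25525 reads in each pool, against 265 to 4515 of IGF2BP2. At RNU5E-1, a U5 spliceosomal RNA gene, the log2 fold of IGF2BP2 over the other RBPs was −1.93 to −0.78 over the 5 pools. At the U2AF2 intron, the HEK293-only site of highest fold, 48 and 85 IGF2BP2 reads stood beside 3496 and 4385 reads of the other RBPs in HEK293, and in K562 IGF2BP2 had no peak while the other RBPs had 79 to 143 reads. The RTEL1 intron had 22 and 26 IGF2BP2 reads beside 672 and 1362 of the other RBPs. UCKL1 had 16 and 28 beside 125 and 214, and the fourth site, on chr21 in a noncoding intron of ENSG00000278996, 11 and 40 beside 26 and 95. The log2 fold of IGF2BP2 over the other RBPs in HEK293 was below 0 at U2AF2 (−2.81 and −2.65) and RTEL1 (−1.55 and −2.25). It was 0.41 and 0.11 at UCKL1 and 2.14 and 1.79 at the fourth site.

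The 4 K562-only sites named by the same rule also had IGF2BP2 reads in both HEK293 libraries, from 9 to 416. At the LDHA 3′ UTR, LDHA being the lactate dehydrogenase of glycolysis, the strongest IGF2BP2 peak had 416 and 181 reads in HEK293 and 131, 301 and 452 in K562, beside 101 and 52 reads of the other RBPs in HEK293 and 116 to 227 in K562. Its log2 fold over the external background was 2.60 and 1.75 in HEK293, under the limit of 3, and 9.20, 9.70 and 9.77 in K562, whereas its log2 fold over the other 9 RBPs was 5.42 and 4.84 in HEK293 and 3.79 to 4.34 in K562. The upstream HMGA1 site had 64 and 97 IGF2BP2 reads in HEK293 and 162, 279 and 354 in K562, with log2 folds over the other RBPs of 5.68 and 4.15 against 3.62 to 3.97. At both sites the fold over the other RBPs was higher in each HEK293 library than in any K562 library.

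The 5′ UTRs of the ferritin chains FTH1 and FTL, which carry the iron-responsive element of iron storage, were the other 2. FTL had 37 and 14 IGF2BP2 reads in HEK293 and 161, 332 and 408 in K562, with log2 folds over the other RBPs of 3.16 and 4.53 against 3.02 to 3.42. FTH1 had 9 and 194 reads in HEK293 and 312, 469 and 515 in K562, and its log2 fold over the other RBPs was −1.36 and 1.96 in HEK293 and 1.98 to 3.02 in K562, so that 1 HEK293 library lay below 0.

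The sites printed first, enriched over the CC in all 5 libraries, were taken with chromosome 8 left out. They were ranked by their fold over the other RBPs. Few reads of the other RBPs there follow from this choice. The main HMGA1 site, chr6:34245746-34245939, had 270 and 350 IGF2BP2 reads in HEK293 and 331, 1014 and 1023 in K562, beside 25 and 47 reads of the other 9 RBPs in HEK293 and 73 to 173 in K562. The NFATC3 CDS site, in the coding part of a calcium-regulated transcription factor, had 21 and 41 reads against 39, 54 and 65, with 0 and 12 reads of the other RBPs in HEK293 and 3 or 4 in K562. The proximal SLC25A23 site had 69 and 170 reads in HEK293 and 24, 43 and 67 in K562, and the distal one 47 and 183 against 27, 42 and 75. ACLY, the lyase that makes cytosolic acetyl-CoA, had 50 and 21 reads in HEK293 and 10, 46 and 45 in K562. All 5 sites had at least 10 IGF2BP2 reads in every library.

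The share of IGF2BP2 peaks that passed the limits over the CC was lower in HEK293, at 12.3% and 6.47%, than in K562, at 24.7%, 26.1% and 11.4%, with overlap between HEK293 replicate 1 and K562 replicate 3. The difference was −11.4 percentage points (exact permutation p = 0.3, adjusted p = 0.3). The same difference was between −9.54 and 1.29 points for the other 9 RBPs and above 0 for FAM120A only, so that 8 of the 9 moved the same way.

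The CAU-type letters were more frequent at IGF2BP2 sites than around them where the CC was the background, in both lines. Peaks extended by 20 nt on both sides were searched on their strand for CATA, CATC or CATT, for ACACA and for GGAC, which can overlap one another, and windows of the same length 500 nt away gave the share in the neighbourhood. The windows were placed along the genome and not the spliced mRNA, so those of exonic peaks can lie in introns. The part of this in the excess was not tested. In peaks enriched over the CC, 67.0% and 69.1% in HEK293 and 66.8%, 70.7% and 79.6% in K562 held CATA, CATC or CATT, against 58.2% to 65.7% of the windows 500 nt away. The excess was 8.88 and 7.84 points in HEK293 and 8.26, 11.9 and 13.9 in K562, above the highest of the other 9 RBPs in each pool (1.31 to 6.35 points), whose mean was below 0 in all 5. Over the external background the excess was 1.79 and −1.10 points in HEK293 and 2.003, 5.998 and 6.95 in K562 (difference −4.64 points, exact permutation p = 0.2, adjusted p = 0.229).

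ACACA was found in 15.1% and 16.4% of peaks enriched over the external background in HEK293 and in 15.6%, 13.9% and 13.8% in K562, against 7.10% to 8.21% of the windows 500 nt away. The excess of 7.97 and 8.63 points in HEK293 and 7.74, 5.998 and 5.63 in K562 differed by 1.84 points (exact permutation p = 0.2, adjusted p = 0.229). The mean excess of the other 9 RBPs was also higher in HEK293, at 3.98 and 6.01 points, than in K562, at 2.73, 1.30 and 1.10. In HEK293 replicate 2 the highest of these RBPs, at 9.54 points, lay above IGF2BP2. Over the CC the IGF2BP2 excess was 5.68 and 5.18 against 6.97, 5.80 and 7.45, so that the order of the lines turned. GGAC stood 1.66 and 2.73 points above the windows in HEK293 and 1.48, 1.39 and 1.54 in K562 (difference 0.73 points, exact permutation p = 0.1, adjusted p = 0.16), below the mean of the other 9 RBPs (2.102 to 3.68 points) in all 5 pools. The GGAC difference was 0.19 points without HEK293 replicate 2.

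**Figure D5:**
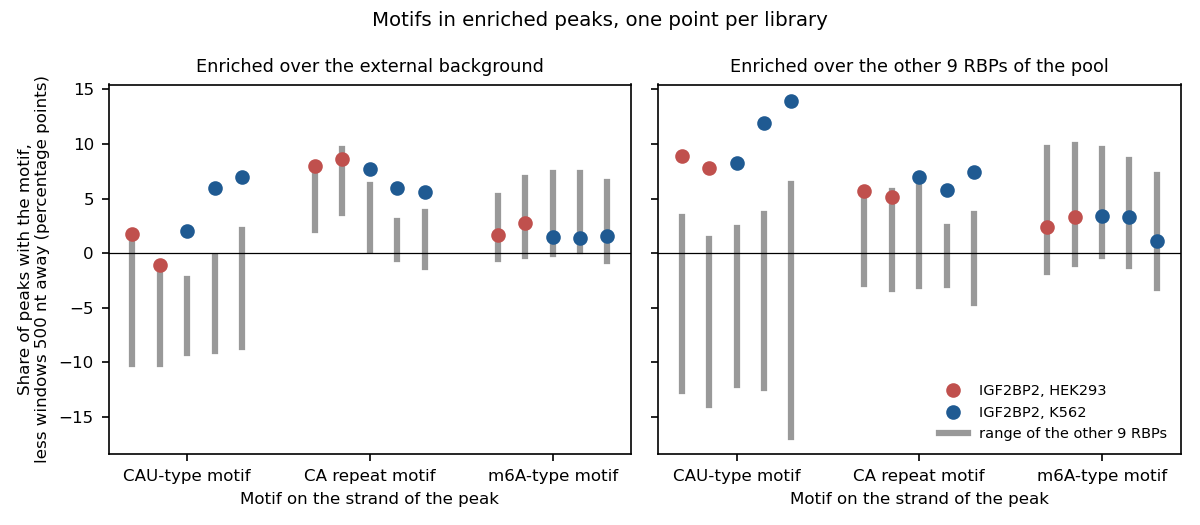
Share of enriched peaks with each motif less the share of windows 500 nt away (percentage points, y axis) for peaks enriched over the external background (left) and over the other 9 RBPs (right), with 1 point per IGF2BP2 library and a grey bar from the lowest to the highest of the other 9 RBPs of the pool. The CAU-type motif is CATA, CATC or CATT, the CA repeat motif ACACA and the m6A-type motif GGAC; on the right the CAU-type points lie at 7.84 to 13.9, above the bars in all 5 pools, and the m6A-type points lie within the bars.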

How the data were processed

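IGF2BP2 and the other 9 RBPs were read from 5 pools of 10-antibody ABC. Per the labels and methods, the authors trimmed reads with cutadapt 2.8, mapped them to GRCh38 with STAR 2.7.6, removed PCR duplicates by molecular identifier and called peaks. The deposited peak files hold a −log10 P (stopping at 400 in some lists) and a log2 fold over the external background, and the peak caller's own files a score and a p-value. The lists over the CC hold, as deposited, a chi-squared statistic and a p-value with repeats removed (HEK293, K562 replicates 1 and 2) or −log10 P and log2 fold with repeats kept (K562 replicate 3). The fold over the other 9 RBPs was therefore computed here alike for all pools. It used their reads in overlapping peaks, set to 1 where no peak of theirs overlapped. In K562 replicate 3, 20452 of 41131 IGF2BP2 peaks had such reads, and their log2 fold lay a median of 0.51 above the deposited one. The other pools could not be compared, and the part of this offset in the values over the CC was not tested.

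Reads in peaks were recovered from the deposited log2 folds, which are ratios of whole numbers (99.89% of peaks in HEK293, 100% in K562). Reads outside peaks were not used, so a gene without a peak counts as 0. Regions and genes came from GENCODE 44 (GENCODE 35 by the authors; the same region in 97.08% to 97.97% of the peaks compared in 3 libraries). Genes were tested with limma 3.58.1 (trend, Benjamini-Hochberg) in R 4.3.3, and overlaps used Python 3.11.15, pandas 2.3.3 and bedtools 2.31.1. On simulated data for 6934 genes with 200 changed, the preference test recovered 44% of 4-fold and 94% of 16-fold changes, with 13 and 32 false calls.

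Named genes were the 10 of lowest p per direction (none was called), the known target mRNAs (1 of those tested is not reported here), the 5 of highest read share per line and the genes of the RBPs. Named sites were the 4 of highest mean log2 fold over the external background per class, among sites in genes tested and not on chromosome 8. Of the sites in HEK293 only, in K562 only and in all libraries, 70.3%, 90.65% and 97.4% lay in genes tested. Members, lists and rules were chosen with earlier results of these data known.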

Additional observations from a re-analysis of the deposited data

How the results depend on the processing

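No paired analysis was possible because the titles of the 2 lines share only 1 replicate number. The alternatives over the CC for genes, sites and motifs, those within CDS and UTRs, with repeats left out of K562 replicate 3, with exon reads, with equal weights and with a minimum of IGF2BP2 reads were chosen after seeing the data. Over the CC, the CDS and 3′ UTR differences kept their direction (−2.14 and −2.40 points), and the CDS difference less the other 9 RBPs turned to −1.74, or −1.40 with repeats left out of K562 replicate 3. With both the CC and the limit to CDS and UTRs, the 3′ UTR difference turned to 0.10 points and the CDS difference less the other RBPs was 1.7. The ACACA difference turned to −1.31 over the CC. No gene was called for preference in the main setting, in 7 of the 10 alternatives or with any library left out (0 to 0), whereas a pseudocount of 5 reads gave 7, no filter on low genes 2005 and the external background as control 5390. The causes were not tested. With 1 library left out, the calls without the control ranged from 449 to 1536, the region differences from −12.8 to −11.6 points (CDS), −22.6 to −8.77 (3′ UTR), 3.6 to 6.98 (CDS less the other RBPs) and −19.3 to −6.77 (3′ UTR less the other RBPs), the share enriched over the CC from −16.0 to −8.46, and the motifs from −6.13 to −3.19 (CATA, CATC or CATT), 1.43 to 2.48 (ACACA) and 0.19 to 1.26 (GGAC).

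Genes in all libraries, in HEK293 only and in K562 only numbered 600, 1863 and 306 at P below 1e-05 and fold above 16, 1427, 3681 and 154 at fold above 1, 654, 697 and 436 for the strongest 5691 peaks and 598, 458 and 181 over the CC. Sites numbered 513, 2522 and 1214, then 1468, 6389 and 876, then 665, 1176 and 1319, and over the CC 291, 377 and 236. With 1 library left out, genes ranged from 1256 to 1629 in all, 3479 to 5581 in HEK293 only and 296 to 409 in K562 only, and sites from 967 to 1235, 5134 to 29001 and 1685 to 3141. IGF2BP2 reads in peaks ranged from 190889 to 1124616 per library, and the part of depth in presence was not tested.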
